A study of Mus musculus with 12 samples.

Results

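Kupffer cells are the macrophages that live inside the blood sinusoids of the liver, where they take up bacteria, worn blood cells and lipid from portal blood. The transcripts described here come from 9 genes listed as core genes of these cells or of tissue macrophages in general, including those for the chains of C1q. They were found by their symbols among the 24983 genes of the count table, and all 9 passed the filter on low counts that left 14469 genes for testing. The rule lists them by name and uses no measured value, but the genes were chosen with earlier results of these data known. Clec4f, Vsig4, Cd5l and Folr2 encode surface receptors or a secreted scavenger protein of resident macrophages. C1qa, C1qb and C1qc encode the A, B and C chains that assemble into C1q, the molecule that starts the classical complement pathway by binding antibody complexes or dying cells. Csf1r encodes the receptor through which CSF1 and IL-34 keep macrophages alive, and Adgre1 encodes F4/80, the antigen most used to stain mouse macrophages.

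RNA was sequenced from the livers of 12 C57BL/6J mice, 3 in each of 4 groups, and each library came from a separate animal. The chow group ate standard food. The remaining mice were kept for 24 weeks on a diet that brings on steatohepatitis (NASH); fat supplied 40% of its calories, and it was rich in trans fat, fructose, cholesterol and saturated fat. Their subcutaneous osmotic minipumps delivered the solvent polyethylene glycol (vehicle), or in it oleic acid (OA, a monounsaturated fatty acid) or OA-NO2 (nitro-oleic acid, the same chain carrying a nitro group), each fatty acid at 5 mg/kg/day. All mice were of 1 strain, and no transgene or deletion is named. Chow mice are not labelled as carrying a pump, so diet and pump cannot be told apart, and ages are not stated.

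Total counts were 8462590 in chow replicate 1 and between 15972613 and 20613777 in the other libraries. Levels are CPM (counts scaled to the size of the library) on totals scaled by the trimmed mean of M values (TMM), and differences are log2 fold changes from edgeR's quasi-likelihood test with Benjamini-Hochberg adjustment over all genes tested, called at an adjusted p under 0.05. Hepatocyte transcripts marked the tissue as liver, with Alb between 35376 and 123274 CPM, and Clec4f, a marker of mouse Kupffer cells, was read in every library at 57.1 CPM or more. Some libraries stood apart from others of their group. Chow replicate 1 had the fewest reads and the lowest sum over the 9 genes (303 CPM, against 444 and 603 in the other chow mice). OA replicate 3 had a sum of 717 CPM, against 1068 and 1114 in the other OA mice, and its summed recruited-macrophage genes stood at 109 CPM against 761 and 479. Vehicle replicate 1 was the lowest of its group in both sums, with 754 CPM over the 9 genes against 887 and 891, and 234 CPM over the recruited-macrophage genes against 822 and 696.

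Per kilobase of exon, the scale on which genes can be compared with each other, Cd5l was the most abundant of the 9 transcripts, at a mean level of 114 CPM per kb over the 12 libraries. C1qb (87.3 CPM per kb) and C1qa (83.2) followed, then C1qc (46.4), Clec4f (39.6) and Vsig4 (26.3). The general macrophage genes Csf1r (10.6 CPM per kb) and Adgre1 (8.78) were lower, and Folr2, at 0.910 CPM per kb, was the lowest. In mean CPM, 8 of the 9 genes had their lowest group in chow; Clec4f, the exception, had it in the vehicle group, though in chow when plain totals were used. Cd5l, Folr2, C1qb, C1qc, Csf1r and Adgre1 followed the same order of group means, chow below OA-NO2 below vehicle below OA.

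**Figure D1:**
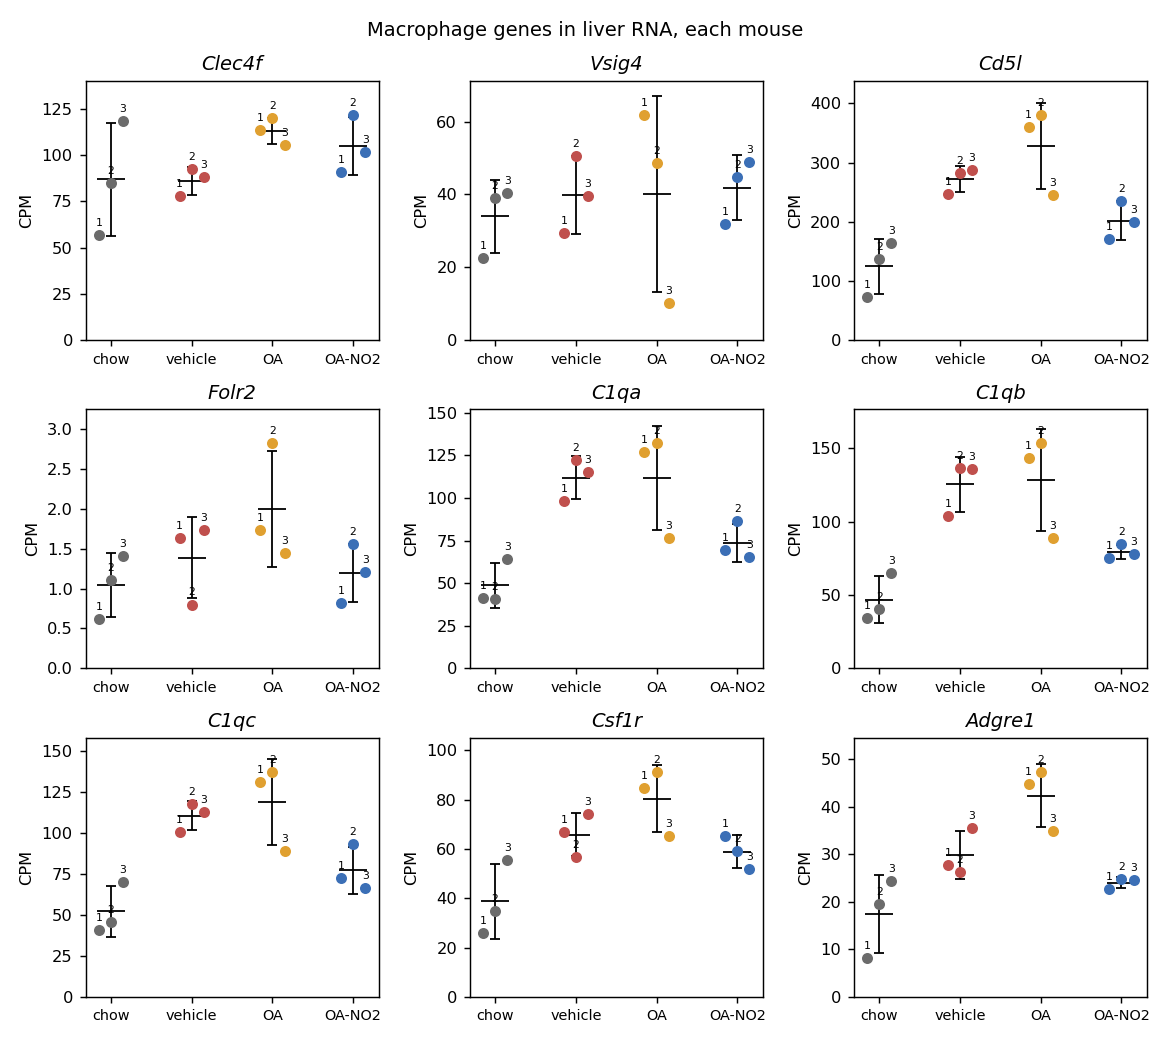
Level of each of the 9 genes in each mouse, as CPM on TMM-scaled totals on a linear axis from 0. Points are mice numbered by replicate, horizontal lines are group means and bars are 1 SD (n = 3); the C1q and Cd5l points of the vehicle mice lie above all chow points, whereas the Clec4f points of chow span 57.1 to 119 CPM and enclose those of the vehicle group.

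The genes for the C1q chains lie side by side on chromosome 4 (GRCm38, minus strand), in the order C1qb (ENSMUSG00000036905, chr4:136880129-136886187), C1qc (ENSMUSG00000036896, chr4:136889804-136893065) and C1qa (ENSMUSG00000036887, chr4:136895917-136898803). The gaps between them are 3616 and 2851 bases, and the 3 genes span 18675 bases. The promoters of C1qb and C1qc, which rose on the diet, are shown beside that of Cd5l, which rose with them from another chromosome, and that of Clec4f, which did not pass the test. Each is the 250 bases before the RefSeq start site in GRCm38.p6, read 5′ to 3′ on the gene's strand. For C1qc and Clec4f the RefSeq start lies inside the gene span printed here from GENCODE, so part of each window overlaps that span. Capitals mark GAGGAA, or TTCCTC where it lies on the opposite strand. PU.1 (Spi1, the myeloid transcription factor of the ETS family) is known to bind this sequence. Shorter cores of ETS factors were not searched.
C1qb (chr4:136886201-136886450): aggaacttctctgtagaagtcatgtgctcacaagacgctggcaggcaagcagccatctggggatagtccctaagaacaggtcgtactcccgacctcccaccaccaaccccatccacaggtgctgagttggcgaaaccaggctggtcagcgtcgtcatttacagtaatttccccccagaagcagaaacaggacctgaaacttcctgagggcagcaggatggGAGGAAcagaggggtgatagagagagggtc
C1qc (chr4:136892915-136893164): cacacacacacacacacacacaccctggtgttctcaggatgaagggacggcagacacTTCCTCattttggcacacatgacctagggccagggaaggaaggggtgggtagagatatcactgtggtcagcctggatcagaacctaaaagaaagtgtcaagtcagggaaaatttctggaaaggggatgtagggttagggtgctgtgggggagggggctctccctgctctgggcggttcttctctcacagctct
Cd5l (chr3:87357631-87357880): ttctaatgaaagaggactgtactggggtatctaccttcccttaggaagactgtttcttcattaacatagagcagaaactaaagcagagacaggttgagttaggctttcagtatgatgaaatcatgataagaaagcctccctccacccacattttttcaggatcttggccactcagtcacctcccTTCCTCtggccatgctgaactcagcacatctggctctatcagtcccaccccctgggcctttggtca
Clec4f (chr6:83656117-83656366): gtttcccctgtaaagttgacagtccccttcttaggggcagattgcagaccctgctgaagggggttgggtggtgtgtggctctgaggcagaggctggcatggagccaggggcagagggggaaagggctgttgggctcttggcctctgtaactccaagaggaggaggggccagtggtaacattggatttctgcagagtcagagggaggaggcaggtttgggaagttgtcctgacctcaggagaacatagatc
A RefSeq window was found for 6 of the 9 genes, 7 windows in all since Folr2 has 2 start sites. C1qa, Csf1r and Adgre1 had no window. GAGGAA occurred in 4 of these windows, at position -30 from the start of C1qb, -193 of C1qc, -66 of Cd5l, and -155 and -53 of Vsig4. Vsig4 was not called in vehicle over chow, so matches were not confined to called genes. No match lay in the windows of Clec4f or Folr2. Over all 32851 windows of this length, 23.3% held it on either strand. The same search for TGANTCA, the AP-1 core, matched 1 window (the second of Folr2) against 6.75% of all, and TATAAA matched none against 12.4%. The motifs were chosen with results of these data known, and a match is a run of letters, not a measured site.

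The C1q chains had the lowest adjusted p of the 9 genes in vehicle over chow, each more than 2-fold higher in the vehicle mice. C1qb, which encodes the B chain, was read at 34.5, 40.7 and 64.9 CPM in chow replicates 1 to 3 and at 104, 136 and 136 CPM in the vehicle mice. In the OA mice it stood at 143, 153 and 88.9 CPM, and under OA-NO2 at 75.2, 84.7 and 77.7 CPM. Every vehicle value lay above every chow value, the OA-NO2 values lay between those of the chow and vehicle mice, and OA replicate 3 stood well below the other OA mice. C1qb rose by a log2 fold change of 1.42 ± 0.24 (SE) in vehicle over chow, a fold of 2.67 with a 95% interval of 1.86 to 3.85 (adjusted p = 0.0036).

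C1qa, for the A chain, was read at 41.0, 40.9 and 64.2 CPM in chow and at 98.2, 122 and 115 CPM in the vehicle group. It was at 127, 132 and 76.3 CPM with OA and at 69.4, 86.4 and 65.1 CPM under OA-NO2. The chow and vehicle groups did not overlap, and the log2 fold change between them was 1.198 ± 0.23 (adjusted p = 0.0053). C1qc, for the C chain, was read at 40.9, 45.8 and 69.7 CPM in chow, 101, 118 and 113 CPM with vehicle, 131, 137 and 88.6 CPM with OA, and 72.1, 92.9 and 66.1 CPM under OA-NO2. It rose by 1.08 ± 0.22 in vehicle over chow (adjusted p = 0.0071), again with no overlap. For all chains the call held in all 17 alternatives, with an adjusted p of at most 0.0340 for C1qc when 1 library was left out; without chow replicate 1 or any other single library the C1qb change lay between 1.24 and 1.73.

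The 3 chains kept close proportions. As shares of their sum per kb, C1qa made up 36.5% to 42.7% over the 12 libraries, C1qb 34.3% to 42.5% and C1qc 19.9% to 23.6%. The C1qb share was 36.5% ± 1.91 (SD, n = 3) in chow and 41.0% ± 1.49 with vehicle, and the C1qc share was 23.2% ± 0.382 and 20.5% ± 0.913. The chow and vehicle shares did not overlap for either chain. Shares are given without a test, and they rest on exon lengths that assume every annotated exon is used.

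Cd5l (ENSMUSG00000015854, chr3:87357881-87371073, plus strand) encodes AIM, a scavenger-receptor protein that macrophages secrete and that binds IgM in blood. It was read at 72.8, 137 and 163 CPM in chow and at 248, 283 and 288 CPM with vehicle. With OA it stood at 359.9, 381 and 245 CPM, and under OA-NO2 at 171, 236 and 199.7 CPM. The groups in order of their means (chow, OA-NO2, vehicle, OA) were each separate from the next except vehicle and OA, which overlapped through OA replicate 3. Cd5l rose by 1.13 ± 0.26 in vehicle over chow, a fold of 2.19 with an interval of 1.48 to 3.22 (adjusted p = 0.0117). Without chow replicate 1 the change was 0.86, the lowest of the 17 alternatives, and the call held in all of them, with an adjusted p of at most 0.0416.

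Clec4f (ENSMUSG00000014542, chr6:83644542-83656187, minus strand) encodes a C-type lectin that binds galactose-bearing glycolipids and, in mice, is used to mark resident Kupffer cells. Its levels were 57.1, 85.1 and 119 CPM in chow, 77.9, 92.7 and 88.1 CPM with vehicle, 114, 120.0 and 106 CPM with OA, and 90.7, 122 and 102 CPM under OA-NO2. Chow mice spread over the whole range of the vehicle mice. The log2 fold change of vehicle over chow was -0.02 ± 0.21, with an interval of -0.48 to 0.44 (adjusted p = 0.967), so a rise as large as that of C1qb lies outside this interval. Without chow replicate 1 the estimate was -0.24 and without chow replicate 3 it was 0.27; scaling by library size alone gave 0.49, beside a shift of 0.51 in the median of all genes. Clec4f passed the test in OA over chow and in the mean of the diet groups over chow under that scaling alone, and Folr2 in OA over chow.

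Vsig4 (ENSMUSG00000044206, chrX:96247203-96293438, minus strand) encodes CRIg, the complement receptor through which Kupffer cells catch particles coated with fragments of C3. It was read at 22.5, 39.1 and 40.5 CPM in chow, at 29.4, 50.7 and 39.6 CPM with vehicle, at 61.9, 48.6 and 10.1 CPM with OA, and at 31.9, 44.8 and 48.9 CPM under OA-NO2. OA replicate 3 had the lowest value of all 12 mice and OA replicate 1 the highest, and all groups overlapped. The vehicle over chow change was 0.22 ± 0.46, with a wide interval of -0.77 to 1.21 (adjusted p = 0.773). Folr2 (ENSMUSG00000032725, chr7:101839988-101857194, minus strand), the gene for folate receptor beta, had between 4 and 55 reads in a library and group means of 1.04 CPM in chow, 1.39 with vehicle, 2.00 with OA and 1.195 under OA-NO2. Its vehicle over chow change was 0.35 ± 0.43 with an interval of -0.57 to 1.26 (adjusted p = 0.599). Folr2 shares 975 exon bases with Gm10602 on the other strand, which had 3 to 13 reads a library; the use of strand in counting is not given in the sources used here.

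Csf1r (ENSMUSG00000024621, chr18:61100598-61132149, plus strand) was read at 25.9, 34.9 and 55.4 CPM in chow and at 66.7, 56.7 and 74.2 CPM with vehicle. It stood at 84.5, 91.3 and 65.3 CPM with OA and at 65.4, 59.2 and 52.0 CPM under OA-NO2. The lowest vehicle value was just above the highest chow value. Csf1r rose by 0.76 ± 0.23 in vehicle over chow (fold 1.69, interval 1.19 to 2.39, adjusted p = 0.0377). The call was lost when chow replicate 1, chow replicate 2 or any 1 of the vehicle mice was left out, with adjusted p up to 0.130. Csf1r shares 873 exon bases with Hmgxb3 on the other strand, whose group means ran from 5.46 to 7.18 CPM.

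Adgre1 (ENSMUSG00000004730, chr17:57358691-57483527, plus strand) was read at 8.27, 19.6 and 24.4 CPM in chow, at 27.7, 26.3 and 35.6 CPM with vehicle, at 44.7, 47.4 and 34.9 CPM with OA, and at 22.7, 24.9 and 24.6 CPM under OA-NO2. Chow and vehicle did not overlap, but the change of 0.75 ± 0.27 did not pass the threshold (adjusted p = 0.0721). It passed in 4 of 17 alternatives, among them leaving out chow replicate 3 and DESeq2. Chow replicate 1, the library with the fewest reads, held the lowest Adgre1 value of all.

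In vehicle over chow, 5 of the 9 genes were called, all higher: Cd5l, C1qa, C1qb, C1qc and Csf1r. Over all genes tested, 19.3% were called in either direction and 11.1% were called higher. The median log2 fold change was 0.76 over the 9 genes and -0.01 over all genes tested. The values of 6 of the 9 lay apart and higher in the vehicle mice, as did those of 20.4% of all genes. In bulk tissue, more or fewer cells of a type and more or less RNA per cell cannot be told apart. Marker genes of other cells differed between the same groups. Summed over 10 genes, recruited and lipid-associated macrophage transcripts were at 46.7 to 51.9 CPM in chow and at 234 to 822 CPM with vehicle, and 8 hepatocyte genes summed to 124803 to 153740 CPM in chow and 46743 to 60983 CPM with vehicle. No gene of either list was at 0 in any group, and their part in the result was not tested.

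Set against chow, the OA mice had 6 of the 9 genes called, all higher (8.56% of all genes were called in either direction and 6.33% higher), with log2 fold changes of 1.45 ± 0.24 for C1qb, 1.40 ± 0.26 for Cd5l, 1.19 ± 0.23 for C1qa, 1.18 ± 0.22 for C1qc, 1.25 ± 0.28 for Adgre1 and 1.04 ± 0.23 for Csf1r (adjusted p between 0.0053 and 0.0168). Cd5l and the C1q chains were called in all 17 alternatives. The Csf1r call was lost when only the groups compared were fitted, and without chow replicate 1 or 2 or OA replicate 1 or 2, and the Adgre1 call when only those groups were fitted or without OA replicate 1 or 2. With OA-NO2, 0 of the 9 were called over chow by edgeR (0.684% of all genes were called) or by DESeq2 (5.08%), and 5 of the 9 had an unadjusted p under 0.05, all higher, as did 10.7% of all genes. Scaling by library size alone called Cd5l and C1qb there, with 7.79% of all genes called. The C1qb change was 0.76 ± 0.24 (interval 0.24 to 1.28, adjusted p = 0.135), and that of Cd5l was 0.69 ± 0.26 (interval 0.14 to 1.25, adjusted p = 0.181). Both comparisons use the chow mice of the vehicle comparison, so the 3 sets of values are not independent.

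Over all 9 mice on the diet, taken as the mean of the 3 groups, 6 of the 9 genes rose (16.1% of all genes were called in either direction and 9.16% higher). C1qb rose by 1.21 ± 0.21, Cd5l by 1.07 ± 0.22, C1qa by 0.99 ± 0.20 and C1qc by 0.94 ± 0.19, each called in all 16 alternatives. Csf1r rose by 0.80 ± 0.20 (adjusted p = 0.0184) and Adgre1 by 0.81 ± 0.23 (adjusted p = 0.0342). The Csf1r call was lost without chow replicate 1 or chow replicate 2, and the Adgre1 call was lost without either of these, vehicle replicate 3, OA replicate 1 or OA replicate 2. The changes of Clec4f (0.21 ± 0.18), Vsig4 (0.25 ± 0.38) and Folr2 (0.44 ± 0.36) did not pass the test.

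**Figure D2:**
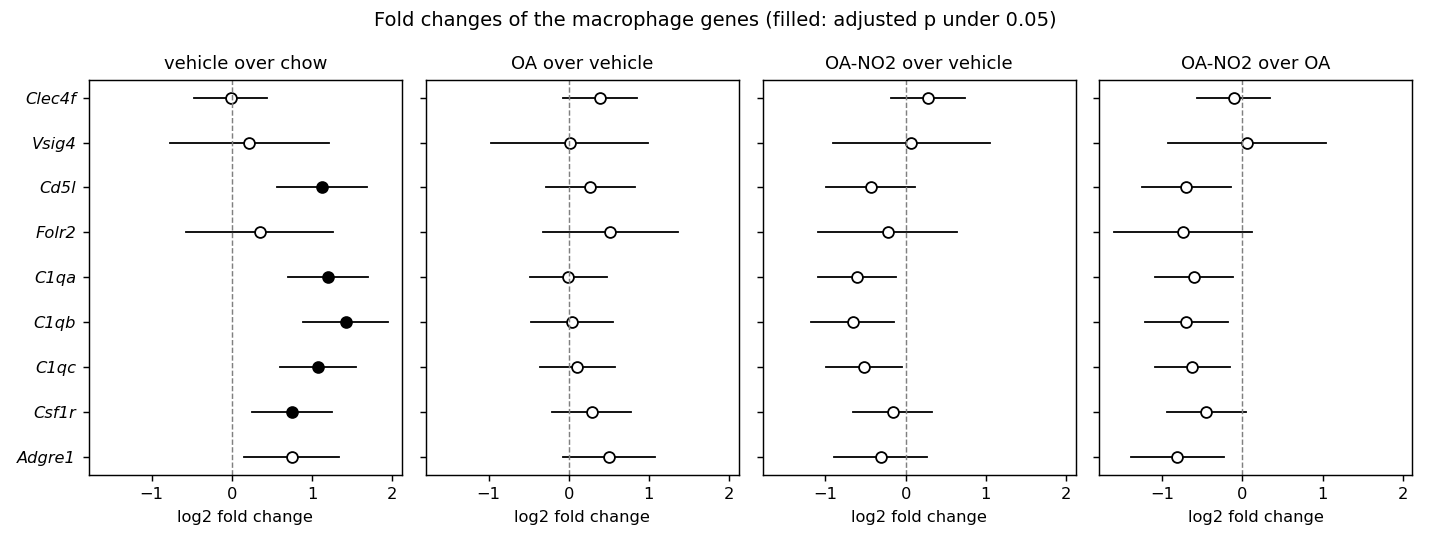
Log2 fold change of each of the 9 genes in 4 comparisons, with 95% intervals; filled points had an adjusted p under 0.05 (edgeR, 3 mice a group). In vehicle over chow the filled points are Cd5l, C1qa, C1qb, C1qc and Csf1r, and no point is filled in the comparisons among the mice on the NASH diet.

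The fatty acids were compared at the same infusion rate and after the same time on the NASH diet; the length of the infusion is not stated. OA is the parent of OA-NO2, which differs from it by the nitro group, and they form the 1 pair of analogs. In OA over vehicle, 0 of the 9 genes were called by edgeR or DESeq2 (0.0% of all genes were called, with 564 genes at an unadjusted p under 0.05, or 3.9%), and 0 of the 9 had an unadjusted p under 0.05. Clec4f differed by 0.39 ± 0.21 (interval -0.07 to 0.85) and lay above the vehicle values in all 3 OA mice, as did 7.81% of all genes, and Adgre1 by 0.50 ± 0.27 (interval -0.07 to 1.08). C1qb differed by 0.04 ± 0.24, with an interval of -0.47 to 0.55.

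In OA-NO2 over vehicle, 0 of the 9 genes were called by edgeR (0.0207% of all genes were called) or by DESeq2, which called 2.01% of the genes it tested. The C1q chains and Cd5l were lower in each OA-NO2 mouse than in every vehicle mouse. The difference was -0.66 ± 0.24 for C1qb (fold 0.632, interval 0.442 to 0.902, adjusted p = 0.216 by edgeR). It was -0.60 ± 0.23 for C1qa (adjusted p = 0.231) and -0.52 ± 0.22 for C1qc (adjusted p = 0.272). At an unadjusted p under 0.05 the 3 chains were lower, as were 8.51% of all genes. Cd5l stood at -0.43 ± 0.26 and Adgre1 at -0.31 ± 0.27, while Clec4f was at 0.28 ± 0.21 (interval -0.18 to 0.74). The values of 5 of the 9 genes lay apart and lower, as did those of 10.5% of all genes. With each library left out in turn, vehicle replicate 1 included, the C1qb difference ran from -0.78 to -0.60 and 0 of the 9 genes were called. The recruited-macrophage genes, summed, ran from 87.6 to 243 CPM under OA-NO2 and from 234 to 822 CPM with vehicle, and the pan-macrophage genes from 532 to 596 CPM and from 801 to 1059 CPM; the part of either in these values was not tested.

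Between the analogs themselves, OA-NO2 over OA, 0 of the 9 genes were called by edgeR (0.00691% of all genes were called) or DESeq2 (0.327%). At an unadjusted p under 0.05 stood 5 of the 9, all lower under OA-NO2, where 6.76% of all genes were lower at that level. These were Adgre1 at -0.82 ± 0.27 (interval -1.40 to -0.24, adjusted p = 0.340), Cd5l at -0.70 ± 0.26, C1qb at -0.70 ± 0.24, C1qc at -0.63 ± 0.22 and C1qa at -0.60 ± 0.23. Only Adgre1, C1qb and Cd5l of the 9 had values that did not overlap, as had 7.37% of all genes in the lower direction. For C1qb the interval ran from 0.431 to 0.880 as a fold. C1qa and C1qc overlapped through OA replicate 3. Without that library the difference was -0.89 for C1qb (adjusted p = 0.0820), -0.80 for C1qa (0.0862), -0.79 for C1qc (0.102), -0.86 for Cd5l (0.135) and -0.92 for Adgre1 (0.137), and 0 of the 9 genes were called without any 1 library. Clec4f differed by -0.11 ± 0.21 (interval -0.57 to 0.35) and Vsig4 by 0.06 ± 0.46, the latter turning to -0.39 without OA replicate 3.

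Ratios between genes within a library do not depend on how libraries are scaled. The C1q chains, summed per kb, stood to Clec4f at 3.99, 2.92 and 3.28 in chow and at 7.68, 8.10 and 8.25 with vehicle. With OA the ratio was 6.97, 6.98 and 4.70, and under OA-NO2 it was 4.72, 4.24 and 4.07. The means were 3.397 ± 0.548 (SD, n = 3) in chow, 8.01 ± 0.297 with vehicle, 6.22 ± 1.31 with OA and 4.34 ± 0.335 under OA-NO2. Chow and OA-NO2 did not overlap, OA-NO2 and OA touched through OA replicate 3, and the vehicle mice lay above all others. Cd5l to Clec4f followed the same order, at 1.73 ± 0.210 in chow, 3.84 ± 0.130 with vehicle, 3.50 ± 0.592 with OA and 2.33 ± 0.0483 under OA-NO2.

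The ratio of the summed C1q chains to Csf1r, the receptor gene shared by all macrophages, was 17.9 ± 2.35 in chow, 24.9 ± 5.30 with vehicle, 20.4 ± 2.27 with OA and 18.1 ± 2.59 under OA-NO2, and neighbours in the order of means overlapped, while the highest chow ratio (20.6) lay just under the lowest vehicle ratio (20.95). Clec4f to Csf1r was 5.15, 5.70 and 5.00 in chow and 2.73, 3.82 and 2.77 with vehicle, with no overlap, and 3.15, 3.07 and 3.78 with OA and 3.24, 4.81 and 4.58 under OA-NO2. Vsig4 to Clec4f was 0.158 in OA replicate 3 and between 0.568 and 0.910 in the other 11 libraries. These ratios are values without a test.

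**Figure D3:**
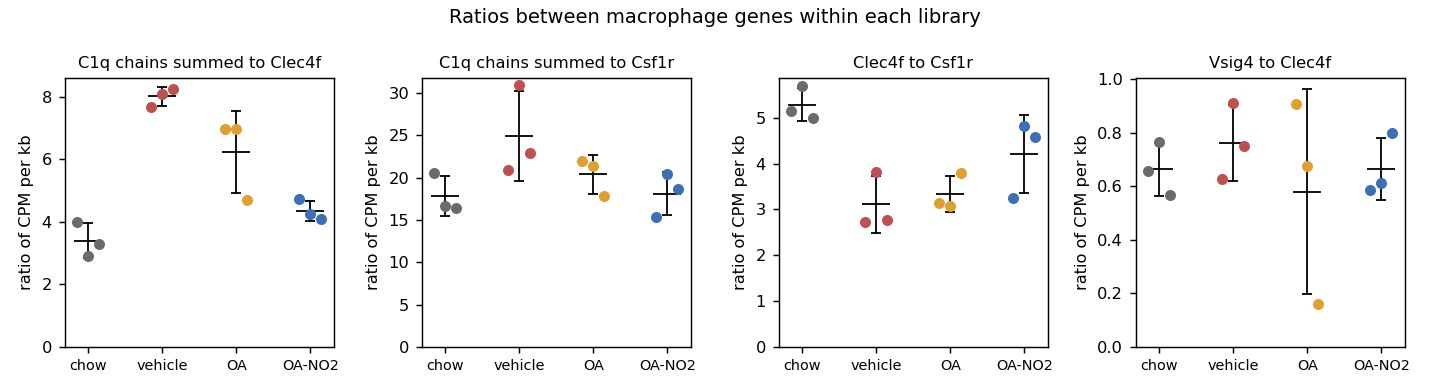
Ratios of CPM per kb within each library on linear axes from 0, by group; points are mice, horizontal lines means and bars 1 SD (n = 3). The C1q to Clec4f ratio is 7.68 to 8.25 in the vehicle mice and 2.92 to 3.99 in chow, and the Vsig4 to Clec4f ratio of 1 OA mouse lies at 0.158.

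Over the 12 libraries, the gene most like each of 3 members was taken as the one with the smallest root mean square difference in centred log2 CPM, among 11577 genes. Closest to C1qb were Fcgr3 (0.130), which encodes an activating antibody receptor, Sh3kbp1 (0.130) and C1qa (0.141), with C1qc ranked 9 and Cd5l ranked 29. Closest to Csf1r were Dock10 (0.122), Sdc3 (0.166) and Entpd1 (0.173). Closest to Clec4f were Agk (0.167), Thsd1 (0.174) and Wdr90 (0.180), and the nearest of the 9 genes to it, Csf1r, ranked 2843. These ranks are descriptions, and all values share the same libraries.

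Kupffer cell genes beyond the 9 went both ways. Of 14 other genes listed for these cells, most but not all for receptors or secreted proteins, 3 rose and 4 fell in vehicle over chow. Their median was 0.08, and among all genes tested 11.1% were called higher and 8.16% lower. Cd207, a lectin, rose by 1.70 ± 0.28. Cd163, the haemoglobin scavenger receptor, fell by 4.71 on the log2 scale, and Fcna, a ficolin of the lectin complement pathway, fell by 1.36. In the mean of the diet groups 3 were called higher and 4 lower (9.16% and 6.98% of all genes), and Il18bp, which binds IL-18, rose by 0.88. Cd163 was among those called lower in that mean, at -2.73, which averages low values in the vehicle and OA groups with OA-NO2 values that overlapped those of chow. Of 11 identity transcription factors, 3 rose and none fell in both comparisons: Spi1, the gene for PU.1, by 1.67 ± 0.29 in vehicle over chow, Irf8 by 1.496 ± 0.28 and Zeb2 by 1.01 ± 0.23.

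Around CSF1R, 6 of 10 axis genes rose and none fell in vehicle over chow, and 7 rose over all diet mice; the medians were 1.203 and 1.0045. Tyrobp, the adaptor DAP12, rose by 1.73 ± 0.31, Inpp5d, a lipid phosphatase, by 1.34 ± 0.25, and Csf2rb, a receptor chain for other growth factors, by 1.32 ± 0.29; over all diet mice Csf2ra rose by 1.44 ± 0.30. Of 8 genes of the C1 complex and the next steps, 1 rose and 2 fell in vehicle over chow (median -0.45), beside the 11.1% of all genes called higher and 8.16% called lower. C1ra, a serine protease of C1, fell by 0.61 and Serping1, the C1 inhibitor, by 0.92, both calls being lost with scaling by library size alone. C5ar1, the receptor for C5a, rose by 2.13 ± 0.67. Of 7 tested C1q-binding genes, 2 rose: Lair1, an inhibitory receptor, by 1.54 ± 0.30 and Cd93 by 1.01 ± 0.26, while C1qbp stood at 0.27 ± 0.15 and, over all diet mice, Lilrb4a at 0.79 ± 0.39.

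For genes that handle C3 fragments beside Vsig4, 5 of 10 rose and 1 fell in vehicle over chow, with a median of 1.10. In that comparison 11.1% of all genes tested were called higher and 8.16% lower. Itgax and Itgb2, chains of complement receptor 4, rose by 4.03 ± 0.65 and 1.71 ± 0.33, and C3ar1, the C3a receptor, by 2.00 ± 0.37. Cfd, factor D, rose by 3.51 ± 0.69 over all diet mice and by 2.48 in vehicle over chow. The group means of Cfd were 3.45 CPM in chow, 18.8 with vehicle, 36.4 with OA and 81.8 under OA-NO2. Of 7 tested folate genes beside Folr2, none rose and 2 fell (median -0.28): Shmt1 by 0.94 and Fpgs by 0.73, both lost with scaling by library size alone. Over all diet mice 1 of these folate genes, the carrier gene Slc19a1, rose (by 0.72 ± 0.17) and 2 fell, Shmt1 among them (at -0.69). Of all genes tested, 9.16% were called higher and 6.98% lower in that mean. Slc19a1 was not called in vehicle over chow (0.46, adjusted p = 0.126). Its group means were 4.75 CPM in chow, 6.48 with vehicle, 7.30 with OA and 9.996 under OA-NO2.

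Among genes marking other cells, 10 of 12 pan-macrophage genes rose in vehicle over chow (median 1.62). In that comparison 11.1% of all genes tested were called higher and 8.16% lower. Fcgr1, the high-affinity antibody receptor, rose by 1.94 ± 0.30, Laptm5 by 1.82 ± 0.31 and Mpeg1 by 1.37 ± 0.21. Of 10 recruited and lipid-associated macrophage genes, 9 rose (median 3.74), among them Cx3cr1, a chemokine receptor, at 4.16 ± 0.61, Trem2, a lipid receptor, at 3.996 ± 0.61 and Mmp12, an elastase, at 6.52 ± 0.99; Lgals3 rose by 2.85 ± 0.47 over all diet mice. The median of the 9 genes described, 0.76, lay below both. Of 8 stellate genes, 5 rose (Col1a1 by 5.05 ± 0.85, Cygb by 1.65 ± 0.31, Des by 1.497 ± 0.29), and of 8 hepatocyte genes 5 fell (Cps1 by 1.62, Alb by 1.39, Serpina1a by 1.17). Of 5 dendritic genes, 2 rose (Ccr7 by 2.64 ± 0.65, Flt3 by 1.80 ± 0.57; Xcr1 stood at 0.60 ± 0.49, and Clec9a at 0.45 ± 0.28 over all diet mice), and of 8 lymphocyte genes 1 rose (Cd8a by 1.85 ± 0.61, with Nkg7 at 1.86 ± 0.62, Cd3g at 1.30 ± 0.47 and, over all diet mice, Trbc2 at 1.38 ± 0.52). None of 8 sinusoidal endothelial genes (Lyve1 1.03 ± 0.39, Kdr -0.68 ± 0.25, Fcgr2b -0.41 ± 0.21) or of 4 neutrophil genes (Csf3r 0.93 ± 0.39, S100a8 1.10 ± 0.68, Retnlg -0.59 ± 0.61) was called. Over all diet mice the counts were 10 of 12 pan-macrophage, 9 of 10 recruited-macrophage, 5 of 8 stellate, 1 of 5 dendritic and 2 of 8 lymphocyte genes higher (Cd8a and Nkg7), 4 of 8 hepatocyte genes and 1 of 8 endothelial genes (Kdr, by 0.62) lower, and none of 4 neutrophil genes. Of all genes tested, 9.16% were called higher and 6.98% lower over all diet mice.

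Some of these calls on list genes rested on single libraries. In vehicle over chow, leaving out 1 library ended the call of C5ar1 (any chow or vehicle mouse, or OA replicate 2), Cd8a (10 libraries, any of the OA and OA-NO2 mice among them), Flt3 (chow replicates 1 and 2, vehicle replicates 2 and 3, OA replicate 2, OA-NO2 replicate 3), Fpgs and Shmt1 (chow replicate 1, vehicle replicates 2 and 3), Ccr7 (chow replicates 1 and 2), Cd93 (chow replicate 1, vehicle replicate 3) and Serping1 (vehicle replicate 3). The highest adjusted p among these was 0.164, for Flt3. Over all diet mice the calls of Cd8a, Ccr7, Nkg7, Cd93, C5ar1, C1ra, Serping1, Shmt1, Slc19a1, Kdr, Csf2ra, Irf8, Zeb2, Cygb, Des and Serpina1a were each lost without 1 or more single libraries, always including a chow mouse. The named calls of Cd163, Fcna, Spi1, Tyrobp, Inpp5d, Itgax, C3ar1 and the pan-macrophage and recruited-macrophage genes held in every alternative run.

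In OA-NO2 over vehicle, 1 gene of all these lists was called, Cd163, which was 4.85 ± 0.38 higher on the log2 scale (adjusted p = 9.81e-05), and in OA over vehicle 0 were called. Cd163 was read at 15.9, 18.9 and 15.3 CPM in chow, 0.978, 0.640 and 0.296 CPM with vehicle, 2.14, 0.769 and 1.14 CPM with OA, and 15.7, 22.8 and 16.9 CPM under OA-NO2. The Cd163 values of the OA-NO2 and chow mice overlapped, whereas the mean levels of the C1q chains under OA-NO2 stood between those of chow and vehicle. The medians in OA-NO2 over vehicle were -0.31 for the 9 genes, -0.74 for pan-macrophage genes, -1.63 for recruited-macrophage genes and 0.02 for all genes tested.

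**Figure D4:**
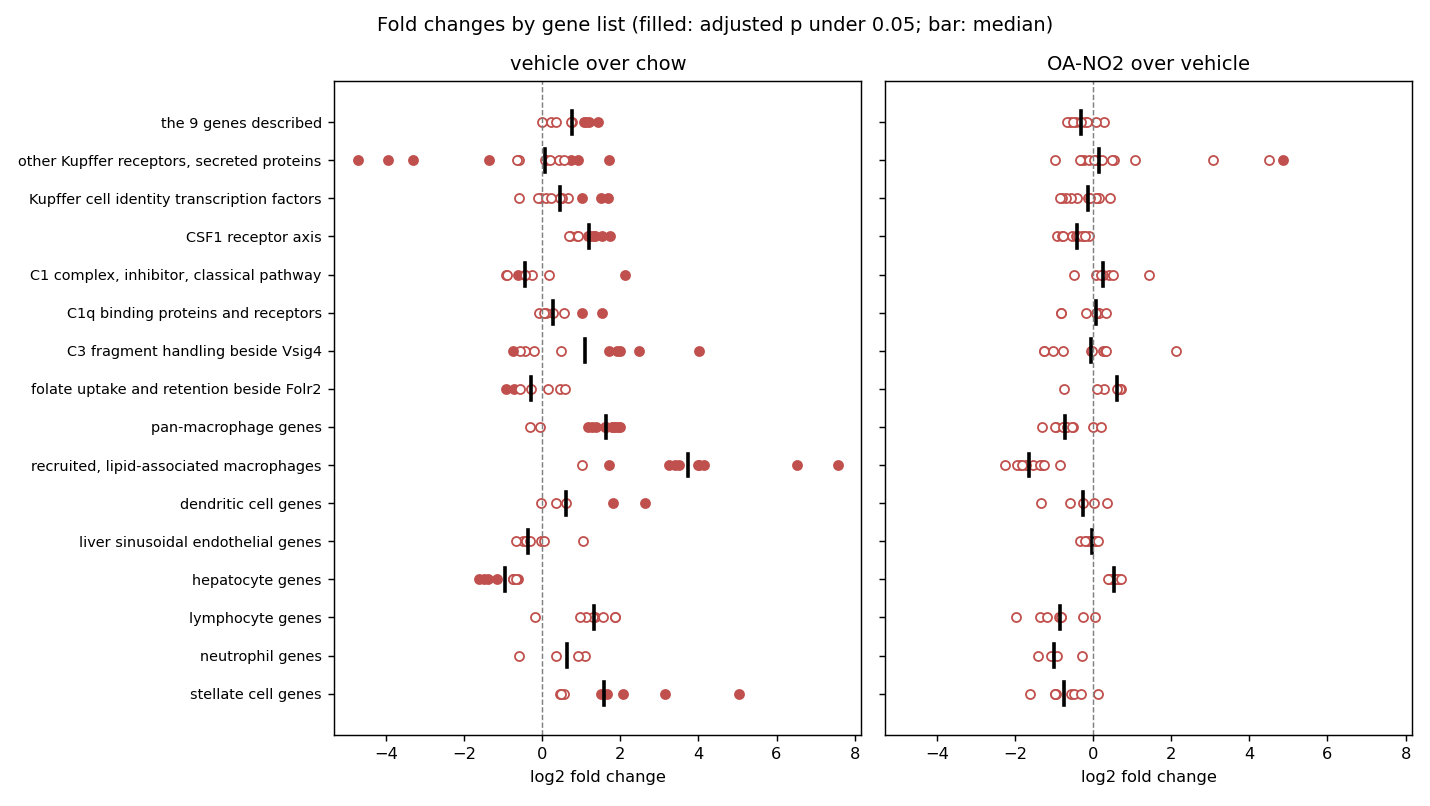
Log2 fold changes of the genes of each list in vehicle over chow and in OA-NO2 over vehicle; each point is a tested gene, filled at an adjusted p under 0.05, and black bars are medians. The median of the 9 genes described is 0.76 on the left, below those of the pan-macrophage (1.62) and recruited-macrophage (3.74) lists.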

How the data were processed

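Liver RNA was measured by RNA-seq in 12 mice, 3 a group, told apart by ear tags in the labels. Per the labels' protocols, libraries were made with a KAPA mRNA HyperPrep kit and sequenced as paired reads of 76 bases. Per the submitters' processing notes, the tools were HTSeq, HISAT2 2.1.0, Trimmomatic 0.35 and SAMtools 1.2, and the build was GRCm38. The table the authors deposited holds raw counts, whole numbers with no normalisation, for each gene and library. Which annotation release, strand setting and handling of multiply mapped reads were used is not given in the sources used here, and reads of overlapping genes may therefore be split or lost.

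Symbols from GENCODE M21 were found for 24914 of 24983 identifiers; the 69 without one held 0.0143% of counts, 8 symbols were shared by several identifiers, and 0 columns were left unmapped. Genes were filtered with edgeR 4.0.16 (R 4.3.3; minimum count 10, minimum total 15), scaled by TMM and fitted for all 12 libraries in 1 quasi-likelihood model with a coefficient per group, with Benjamini-Hochberg adjustment over 14469 genes. Standard errors are the log2 fold change over the square root of F, an approximation. Replicates differed by far more than sampling noise (lowest chi-square per degree of freedom 24.3). Total counts ran from 8462590 to 20613777, and with 3 mice a group precision is set by the spread between mice. Promoters are RefSeq windows of GRCm38.p6.

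The 9 genes and all lists were chosen with earlier results of these data known. The text names the 9 genes throughout; the 3 genes with the lowest p of each other list in vehicle over chow and in the mean of the NASH diet groups over chow; called list genes in the drug comparisons; and the 3 genes closest to Clec4f, C1qb and Csf1r among genes with a given name and a mean CPM of 1 or more. One list gene that this rule names is not reported here. Alternatives were scaling by library size alone or by DESeq2's size factors, no filter on low counts, a fit of only the groups compared, DESeq2 1.42.0, and leaving out each library in turn.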

Additional observations from a re-analysis of the deposited data

Results flagged for a closer look

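Cd163, which encodes a haemoglobin scavenger receptor of Kupffer cells, differed between the fatty acids themselves, OA-NO2 over OA, by a log2 fold change of 3.76 ± 0.35 (edgeR, adjusted p = 0.00085, 3 mice a group). It was higher in each of the 3 OA-NO2 mice than in every OA mouse, and it was the 1 gene called in this comparison. Over the alternatives the difference lay between 3.47 and 4.27, and it was called in all 17. Under the same contrast C1qb stood at -0.70 and Clec4f at -0.11, neither called.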

How the results depend on the processing

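Cd5l and the C1q chains kept their calls against chow in the vehicle mice, the OA mice and the mean of the diet groups under every alternative run. Scaling by library size alone shifted the median of all genes by 0.51 in vehicle over chow, 0.42 in OA over chow, 0.34 in OA-NO2 over chow and -0.18 in OA-NO2 over vehicle. It raised the number of the 9 genes called in OA-NO2 over chow from 0 to 2 (Cd5l and C1qb). The share of all genes called there rose from 0.684% to 7.79%. That scaling also turned the sign of Clec4f in vehicle over chow (0.49), Vsig4 in OA over vehicle (-0.0188), OA-NO2 over vehicle (-0.15) and OA-NO2 over OA (-0.13), C1qb in OA over vehicle (-0.0312), Fcgr2b in vehicle over chow (0.0936) and C1ra in the mean of the diet groups (0.0267). With no filter Clec4f in vehicle over chow was 0.000889 and Vsig4 in OA over vehicle -0.000750, and with only the groups compared the latter was -0.00668. Leaving out 1 library at a time, Clec4f ran from -0.24 to 0.27 in vehicle over chow and from -0.0172 to 0.50 in the mean of the diet groups. In OA over vehicle, Vsig4 ran from -0.44 to 0.44, C1qa from -0.14 to 0.18, C1qb from -0.11 to 0.22 and C1qc from -0.00681 to 0.25. Vsig4 ran from -0.11 to 0.28 in OA-NO2 over vehicle, from -0.39 to 0.51 in OA-NO2 over OA and from -0.22 to 0.65 in OA over chow, and Folr2 from -0.12 to 0.39 in OA-NO2 over chow. Retnlg ran from -0.94 to 0.46 in vehicle over chow and from -1.10 to 0.30 in the mean of the diet groups. With 1 library left out, 4 to 6 of the 9 genes were called against chow in vehicle, OA and the mean of the diet groups. By library size alone 6, 8 and 7 were called, where 39.8%, 26.1% and 36.8% of all genes were called. With TMM scaling those shares of all genes were 19.3%, 8.56% and 16.1%. Of the results on the 9 genes, 1005 kept direction and side of the threshold, 20 lost a call, 9 gained one and 28 turned sign; the cause was not tested. No paired analysis was possible because the mice carry different ear tags and the replicate numbers follow the order of deposit. Folr2 had 4 to 55 reads a library; the part of depth in its error was not tested.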
